A study of Mus musculus with 15 samples.

Results

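Long RNA was compared between testes of mice with 0 intact copies of a chromosome 18 piRNA locus (Chr18-/-, labelled KO) and testes of mice with 1 intact copy (Chr18+/-, labelled HT control). The comparison used the strand-specific total RNA-seq libraries of these genotypes, 6 of the 15 samples in the series, with 3 libraries per genotype. All were whole testis of B6D2F1 mice at postnatal day 28. The 3 wild-type testes (Chr18+/+, labelled WT control) of the same strain, age and tissue have 2 intact copies and are given only as a side value, because they entered the same fit. Of 50051 counted features, 20782 had enough fragments to be tested. Whether the libraries stand for different animals is not in the labels. The p-values cover library-to-library spread, which may be technical.

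Pachytene piRNAs are small RNAs that male germ cells make from long precursor transcripts during meiosis and in round spermatids. They are cut from the precursors, loaded into PIWI proteins such as MIWI (gene Piwil1), and can guide the cleavage or silencing of RNAs that match them. Heterozygotes of the same line keep a working copy of the locus, and the comparison asks what the loss of that last copy changes. At day 28 the first wave of spermatogenesis has reached spermatids, and a whole testis holds germ cells beside Sertoli, Leydig, myoid, immune and endothelial cells.

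Depth and label checks came first. Kit-strand fragments per library ranged from 28639855 to 41513634 in heterozygotes and from 25783931 to 29205925 in homozygotes. The mitochondrial genome took 14.3 to 16.2% of them in heterozygotes and 16.2 to 19.0% in homozygotes. The targeted locus makes a pair of divergent precursors. The minus-strand one, 18_qE1_36451_1 (chromosome 18, positions 67029446 to 67066460, mm10), had 8948, 3983 and 4422 fragments in heterozygotes and 4, 6 and 3 in homozygotes. The plus-strand one, 18_qE1_1295_2, had 1166, 581 and 593 fragments against 3, 1 and 0. Other features of its strand cover 84.7% of its length, where fragments could not be assigned. In CPM (counts relative to the scaled library total), the minus-strand precursor stood at 205, 133 and 152 in heterozygotes and 255 to 296 in wild type. By these levels, all 6 libraries matched their labelled genotype at the locus. Between libraries, the correlation of log2 CPM was 0.983 to 0.986 within heterozygotes, 0.986 to 0.988 within homozygotes and 0.984 to 0.990 between them, so the genotypes did not separate over the whole transcriptome. Heterozygous library 1 stood low in RNA of elongating spermatids (28 markers, summed level 9379 CPM, against 18996 and 16952 in the other heterozygotes and 13828 to 17214 in homozygotes). In whole testis, fewer cells of a type and less RNA per cell cannot be told apart.

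Few features changed when the last copy was lost. By the edgeR quasi-likelihood test with Benjamini-Hochberg adjustment, 3 features rose (0.0144% of those tested) and 3 fell (0.0144%) at an adjusted p under 0.05. The 3 that rose are the protein-coding genes Gm9 and Map7d3 on chromosome X and Tmem184c on chromosome 8. The 3 that fell are both precursors and the long noncoding RNA Gm26561 on chromosome 17.

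The 250 bases upstream of the annotated starts of the genes that rose are shown because these genes moved together. They are RefSeq sequences of the GRCm38.p6 build on the minus strand, at chrX:37211042-37211291 for Gm9, chr8:77610715-77610964 for Tmem184c and chrX:56822326-56822575 for Map7d3, with capitals marking matches to CCAAT on either strand, the CCAAT box.
Gm9: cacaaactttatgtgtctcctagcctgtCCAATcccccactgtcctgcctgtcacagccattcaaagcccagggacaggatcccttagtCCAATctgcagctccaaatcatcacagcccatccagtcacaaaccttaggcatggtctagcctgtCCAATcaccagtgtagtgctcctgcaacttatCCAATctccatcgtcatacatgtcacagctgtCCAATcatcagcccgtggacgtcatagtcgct
Tmem184c: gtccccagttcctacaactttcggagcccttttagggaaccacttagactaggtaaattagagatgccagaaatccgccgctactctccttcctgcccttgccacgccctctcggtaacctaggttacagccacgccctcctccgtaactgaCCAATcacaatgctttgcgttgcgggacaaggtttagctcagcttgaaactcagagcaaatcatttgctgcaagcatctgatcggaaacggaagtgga
Map7d3: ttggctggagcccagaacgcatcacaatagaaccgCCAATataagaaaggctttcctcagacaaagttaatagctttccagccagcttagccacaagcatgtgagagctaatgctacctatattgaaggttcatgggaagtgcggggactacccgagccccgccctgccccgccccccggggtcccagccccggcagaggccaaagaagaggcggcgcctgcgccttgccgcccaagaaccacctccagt
The Gm9 stretch holds 5 matches to CCAAT, and the other stretches hold 1 each. Of 32851 RefSeq stretches of the same length, 33.8% hold at least 1. No match to CAGTTG on either strand, a form of the MYB site held by 11.1% of stretches, or to TGACGTCA, the full cyclic AMP response element held by 1.55%, lies in any of the 3. A match is a description of letters and not a measured binding site.

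Gm9 (positions 37209348 to 37211041) showed the clearest rise. Its level was 8.24, 10.1 and 9.73 CPM in the heterozygous libraries and 40.9, 41.6 and 42.9 CPM in the homozygous ones. Every homozygous library lay far above every heterozygous one, and the spread within either group was small. The log2 fold change was 2.16 (SE 0.10, 95% interval 1.94 to 2.39), with an edgeR adjusted p of 4.84e-07. Wild-type libraries held 4.84 to 5.32 CPM.

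Tmem184c (positions 77595982 to 77610698) encodes a multi-pass transmembrane protein. Its level was 76.2, 74.9 and 92.0 CPM in heterozygotes and 221, 220 and 251 CPM in homozygotes. The groups did not overlap, and the rise was 2.85-fold (log2 fold change 1.51, SE 0.11, edgeR adjusted p = 5.39e-05). Its relatives of the TMEM184 family did not follow. Tmem184a had a log2 fold change of 0.12 (95% interval -0.10 to 0.34) and Tmem184b one of -0.19 (-0.49 to 0.10), so their intervals do not reach the size seen for Tmem184c. Other features of its strand cover 68.5% of the length of Tmem184a, so its value rests on the remaining part.

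Map7d3 (positions 56797858 to 56822326) belongs to the MAP7 family, whose members bind microtubules and recruit the motor kinesin-1. Its level was 17.7, 16.0 and 19.9 CPM in heterozygotes and 36.1, 32.4 and 37.3 CPM in homozygotes. The groups were apart, with a log2 fold change of 0.98 (SE 0.12, edgeR adjusted p = 0.0129), and the adjusted p rose above 0.05 without heterozygous library 1 or 2 or homozygous library 1 or 3 (up to 0.137). Map7d1 (0.01, 95% interval -0.37 to 0.40) and Map7d2 (-0.02, -0.32 to 0.28) showed no such rise. Of the 11 tested genes of the MAP7 family and kinesin-1, Map7d3 alone passed, and the median log2 fold change was -0.00 beside 0.01 over all features.

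Gm26561 (positions 70878078 to 71393284) spans 515207 bases. Its level was 22.5, 26.3 and 24.9 CPM in heterozygotes and 12.3, 13.3 and 13.6 CPM in homozygotes, without overlap (log2 fold change -0.91, SE 0.11, edgeR adjusted p = 0.0129). Other genes of its strand cover 34.0% of its length, where fragments could not be assigned. Its opposite strand carried 3523 to 5886 fragments per library in heterozygotes and 3887 to 4286 in homozygotes. Its own strand carried 346 to 983 over these 6 libraries, so the value depends on the strand separation of the kit. With both strands summed the log2 fold change was 0.07, and wild-type libraries (14.3 to 17.7 CPM) lay near the homozygous ones. The call was lost without heterozygous library 2 or any single homozygous library (adjusted p up to 0.131), and in edgeR after the trend with gene length was removed (0.143).

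**Figure D1:**
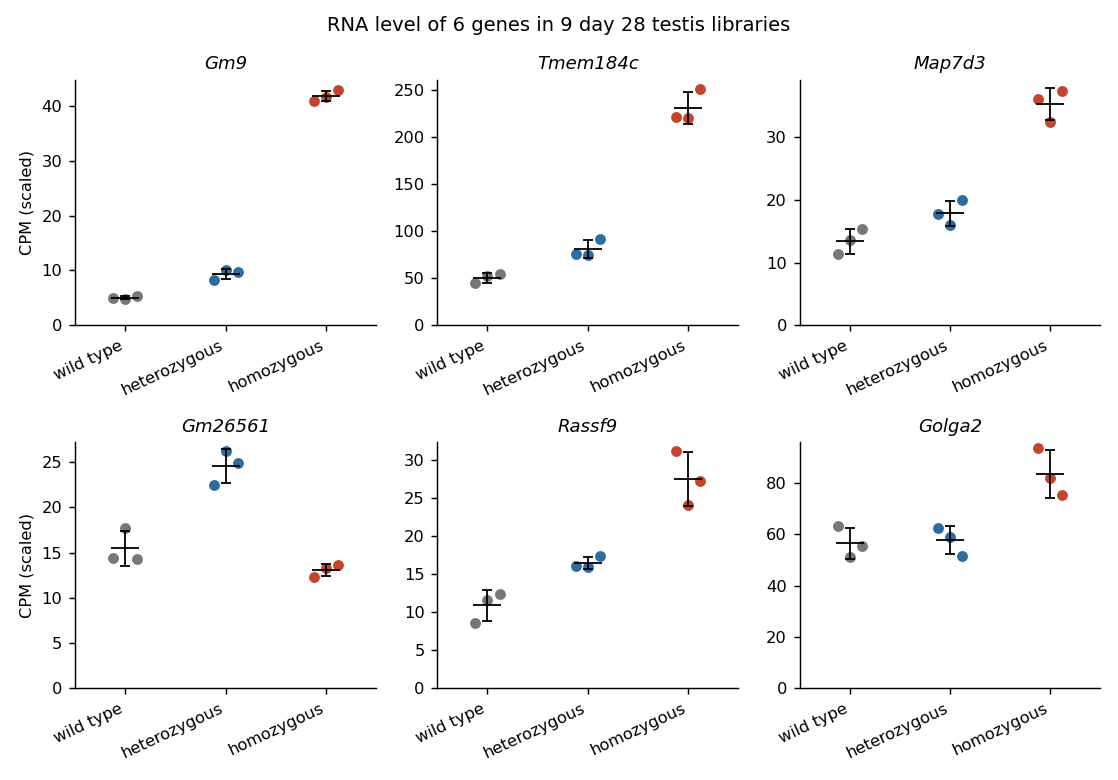
Scaled CPM (vertical axes, from 0) of 6 genes in each of 9 libraries, by genotype; points are libraries, and black bars are the mean ± SD over 3 libraries. Gm9, Tmem184c and Map7d3 rose in every homozygous library, Gm26561 was highest in heterozygotes, and Rassf9 and Golga2 passed in DESeq2 alone.

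DESeq2 on the same 9 libraries placed 9 features higher (0.0433%) and 8 lower (0.0385%) at an adjusted p under 0.05. These include all 6 of edgeR and 11 further features, which did not pass in edgeR (edgeR adjusted p of 0.153 for Gm1821 and 0.311 or more for the others). Their direction was the same in each of 21 alternative settings, except that Serpinb6d could be tested in 20. These settings share libraries, and few of them called these features. Gm1821 passed in 6, Serpinb6d in 5, Rassf9 and Gm43731 in 4 each, and the others in 1 to 3, DESeq2 on 9 libraries included.

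The features that DESeq2 alone placed higher are 6 protein-coding genes. Rassf9, a Ras-association domain protein of recycling endosomes, stood at 16.0, 15.9 and 17.4 CPM in heterozygotes and 31.2, 24.1 and 27.2 in homozygotes (log2 fold change 0.74, DESeq2 adjusted p = 0.00244). Slc39a8, which encodes the zinc and manganese importer ZIP8, stood at 68.8, 70.6 and 75.6 CPM against 96.2, 92.9 and 100.1 (0.43, DESeq2 adjusted p = 0.00123). In both genes the lowest homozygous library lay above the highest heterozygous one, and wild type lay lowest of all (8.57 to 12.4 CPM for Rassf9 and 50.2 to 54.5 for Slc39a8). The opposite strand of Slc39a8 carried 1232 to 1877 fragments per library in heterozygotes and homozygotes, beside 2113 to 3009 on its own. Birc2, which encodes the inhibitor of apoptosis protein cIAP1, stood at 205, 189 and 221 CPM in heterozygotes and 273, 272 and 286 in homozygotes (0.43, DESeq2 adjusted p = 0.00405). Grtp1, a TBC-domain gene, stood at 75.0, 70.7 and 65.2 CPM against 102.4, 93.0 and 96.1 (0.47, DESeq2 adjusted p = 0.00949). The opposite strand of Grtp1 carried 7144 to 12708 fragments per library, more than its own 1896 to 3280, so its value depends on the strand separation of the kit.

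Golga2 encodes GM130, a golgin that tethers vesicles at the cis-Golgi, the organelle from which the acrosome forms. It stood at 62.6, 58.9 and 51.7 CPM in heterozygotes and 93.8, 81.8 and 75.4 in homozygotes. Groups were apart (0.53, 95% interval 0.29 to 0.78, edgeR adjusted p = 0.643, DESeq2 adjusted p = 0.0254), and wild type (51.2 to 63.1 CPM) lay at the heterozygous level. The opposite strand of Golga2 carried 1024 to 1858 fragments per library in these 6 libraries, beside 1504 to 2738 on its own. Its value thus depends in part on the strand separation of the kit, and over the alternative settings it ran from 0.35 to 0.60. Fbxo44, an F-box gene of a ubiquitin ligase, stood at 24.2, 25.7 and 34.4 CPM in heterozygotes and 40.8, 43.2 and 41.3 in homozygotes (0.57, DESeq2 adjusted p = 0.0377). Its wild-type level was higher still, 46.8 to 53.6 CPM, so the heterozygotes were the low group, a pattern shared with other genes of its chromosome and described further down.

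The 5 features that DESeq2 alone placed lower were less uniform. Gm1821, a processed pseudogene whose reads may be shared with its parent gene, stood at 92.9, 99.5 and 89.3 CPM in heterozygotes and 57.0, 57.7 and 47.0 in homozygotes (log2 fold change -0.80, DESeq2 adjusted p = 1.46e-04). Tmem164, a membrane protein gene on chromosome X, stood at 65.3, 56.3 and 59.5 CPM against 43.6, 43.1 and 48.0 (-0.43, DESeq2 adjusted p = 0.0237). Both groups were tight in these genes and did not overlap. The long noncoding RNA Gm43731 stood at 14.4, 13.6 and 3.02 CPM in heterozygotes and 1.84, 1.22 and 2.19 in homozygotes (-2.57, DESeq2 adjusted p = 0.0254). Serpinb6d, a serine protease inhibitor gene, stood at 3.59, 2.14 and 0.378 CPM against 0.319, 0.315 and 0.231 (-2.83, DESeq2 adjusted p = 0.0476). In both of these, heterozygous libraries 1 and 2 were high, and heterozygous library 3 lay near the homozygous and wild-type libraries.

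Gnal, which encodes the G protein alpha subunit of olfactory-type signalling, is the nearest tested neighbour of the locus. It starts 3957 bases beyond the plus-strand precursor and is read from the same strand. It stood at 4.60, 4.71 and 5.16 CPM in heterozygotes and 2.80, 1.64 and 3.08 in homozygotes, with wild type at 6.97 to 8.42 (log2 fold change -0.94, edgeR adjusted p = 0.643, DESeq2 adjusted p = 0.0244). Its level was thus ordered by the number of intact copies, with no overlap between neighbouring genotypes. Of 8 neighbours tested within 500 kb, 2 had an unadjusted p under 0.05, each lower in homozygotes, beside 2.1% of all features on that side. The other is Impa2, an inositol monophosphatase gene on the same strand. Its mean levels were 2.73, 1.85 and 1.10 CPM in wild type, heterozygotes and homozygotes (-0.74, SE 0.24), and it passed in neither tool. The remaining neighbours on that strand, Cidea (0.18), Tubb6 (-0.03) and Prelid3a (-0.30), had an unadjusted p above 0.05.

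**Figure D2:**
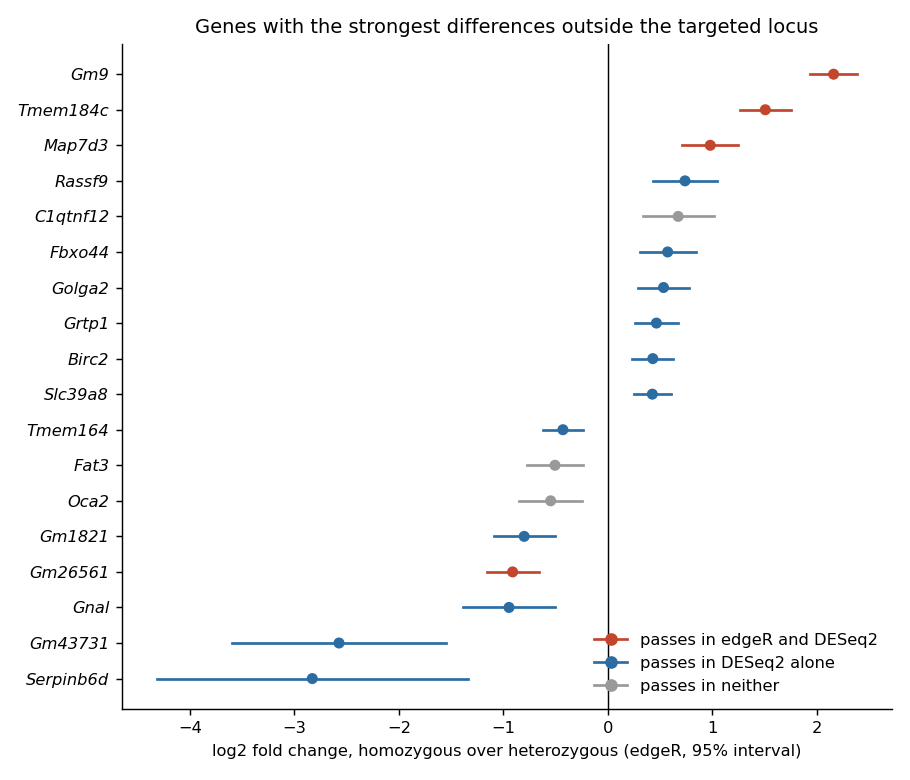
log2 fold change of homozygotes over heterozygotes (horizontal axis, edgeR, bars are 95% intervals) for 18 genes outside the locus, those that passed in either tool or were among the 10 lowest p per direction at 1 CPM or more with no overlap (at most 3 placeholder symbols). Gm9, Tmem184c, Map7d3 and Gm26561 passed in both tools, 11 genes passed in DESeq2 alone, and Fat3, Oca2 and C1qtnf12 passed in neither.

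Small RNA of these genes was counted in separate libraries of the same genotypes and is given as a description, in sense exonic reads scaled to the library's total of such reads over all genes (RPM). Gm9, Tmem184c and Map7d3 held 0 to 4 small RNA reads per library in both genotypes. Golga2 held 316, 361 and 419 RPM in heterozygotes and 245, 248 and 269 in homozygotes, without overlap. Birc2 held 41.9, 57.5 and 34.4 RPM against 45.6, 43.9 and 33.9. Grtp1 held 48.4, 57.5 and 68.9 RPM against 44.9, 41.5 and 36.5. Sense small RNA was thus present at Golga2, Birc2 and Grtp1, lay lower in homozygotes for Golga2 and Grtp1, and overlapped for Birc2. The share of all genes with such a separation in small RNA was not counted, so these differences stand without a background. These counts hold no antisense reads and do not show what is made from the chromosome 18 precursors.

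Genes of the acrosome, the secretory vesicle on the sperm head, showed no change that passed. Of 30 genes of acrosome formation, 0 passed in edgeR or DESeq2, 0 had an unadjusted p under 0.05, and the median log2 fold change was 0.03. For 29 of the 30 the 95% interval lay within a 1.5-fold change in either direction. Over all features at 10 to 100 CPM, this held for 94.0%. Rab3a (mean 2.97 CPM), whose interval was the wider one, and Kifc1 (5.15 CPM) were the members below 10 CPM in heterozygotes. Gopc, a Golgi protein needed for acrosome assembly, had a log2 fold change of 0.03 (95% interval -0.15 to 0.20). Dpy19l2, which anchors the acrosome to the nucleus, had 0.04 (-0.17 to 0.25), Spaca1 of the inner acrosomal membrane 0.02 (-0.29 to 0.34), and Zpbp, a zona pellucida binding protein, -0.03 (-0.29 to 0.23). The intervals of these 4 genes leave no room for a 1.5-fold change in either direction. Of 25 genes for acrosomal enzymes and egg-binding proteins, 0 passed (median 0.05). The protease gene Acr had 0.11 (-0.11 to 0.33), and the sperm membrane gene Tmem95 had the highest value (0.40, 0.01 to 0.78).

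No gene of the Golgi passed in edgeR. Of 35 golgins and Golgi matrix genes, 1, Golga2, passed in DESeq2, and the median log2 fold change was 0.05. In 6 of them every homozygous library lay above every heterozygous one, against 3.86% of all features, and in 1 below, against 4.45%. Besides Golga2, Golga7 (0.25, 95% interval 0.08 to 0.43), which helps palmitoylate Ras proteins, and the golgin gene Golga5 (0.17, -0.01 to 0.35) were among them. Of 57 genes of COPI, COPII and transport between endoplasmic reticulum and Golgi, 8 lay above and 0 below, with a median of 0.05 and 0 passing. Sec23b, a subunit of the COPII coat, had the highest value, at 53.3, 52.9 and 54.4 CPM in heterozygotes and 62.0, 64.4 and 60.0 in homozygotes (0.21, 0.04 to 0.39). Intervals of 34 of 35 golgin genes and 54 of 57 coat and transport genes lay within 1.5-fold. Without scaling beyond library size the coat and transport median was 0.00, with the median of all features at -0.04.

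No gene of the piRNA machinery passed. Of 26 genes for PIWI proteins and piRNA processing, 0 passed (median 0.02), and 24 had intervals within 1.5-fold. Piwil1 stood at 231, 212 and 193 CPM in heterozygotes and 229, 206 and 190 in homozygotes (-0.03, 95% interval -0.24 to 0.19). Piwil2, which encodes MILI, had 0.04 (-0.18 to 0.27), the helicase gene Mov10l1 0.02 (-0.17 to 0.21), and Mybl1, the transcription factor that drives pachytene precursors, 0.04 (-0.18 to 0.27). Mael, a nuage gene, had 0.12 (-0.07 to 0.31), and Ddx25, a helicase of round spermatids, 0.13 (-0.08 to 0.34). The highest value was that of Btbd18, which promotes elongation at pachytene precursors, at 7.73, 8.86 and 9.21 CPM against 10.3, 10.8 and 10.2 (0.28, 0.03 to 0.53). Of 13 germline Tudor domain genes, 0 passed (median 0.03, 13 intervals within 1.5-fold), and Tdrd1 had 0.08. Of 80 other piRNA precursors, 0 passed, with a median of -0.06, so the loss at the chromosome 18 pair came with no passing change at another precursor.

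No marker of a germ cell stage passed. Medians were -0.01 for 21 spermatogonial genes, 0.05 for 32 of early meiotic prophase, 0.07 for 27 of pachytene and secondary spermatocytes, 0.03 for 27 of round spermatids and 0.04 for 28 of elongating spermatids, beside 0.01 over all features, and 0 genes passed in any of these lists. The median over all features varied with level: it was 0.02 at 10 to 100 CPM and 0.05 at 100 CPM or more. Intervals lay within 1.5-fold for all 32 early meiotic genes and all 27 pachytene genes, but for only 19 of 28 elongating spermatid genes, whose libraries spread most. Among spermatogonial genes, Uchl1 (0.28, 95% interval 0.04 to 0.53) and the transcription factor gene Sohlh2 (0.23, 0.02 to 0.44) had an unadjusted p under 0.05. In early meiosis the extremes were Mei1 (0.26, -0.06 to 0.57) and Hormad2 (-0.19, -0.40 to 0.01), which act in recombination and in the surveillance of unpaired axes. In spermatocytes the cyclin genes Ccna1 (0.13, -0.09 to 0.35) and Ccnb2 (0.10, -0.09 to 0.29) and the kinase gene Ttk (0.15, -0.09 to 0.40) did not pass. Of 34 flagellar and axonemal genes 0 passed (median 0.03), with Dnah11 lowest (-0.46, -0.90 to -0.01) and Spag16 at -0.32. Of 29 genes of the manchette, the microtubule skirt that shapes the sperm head, Map7d3 alone passed (median 0.05).

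**Figure D3:**
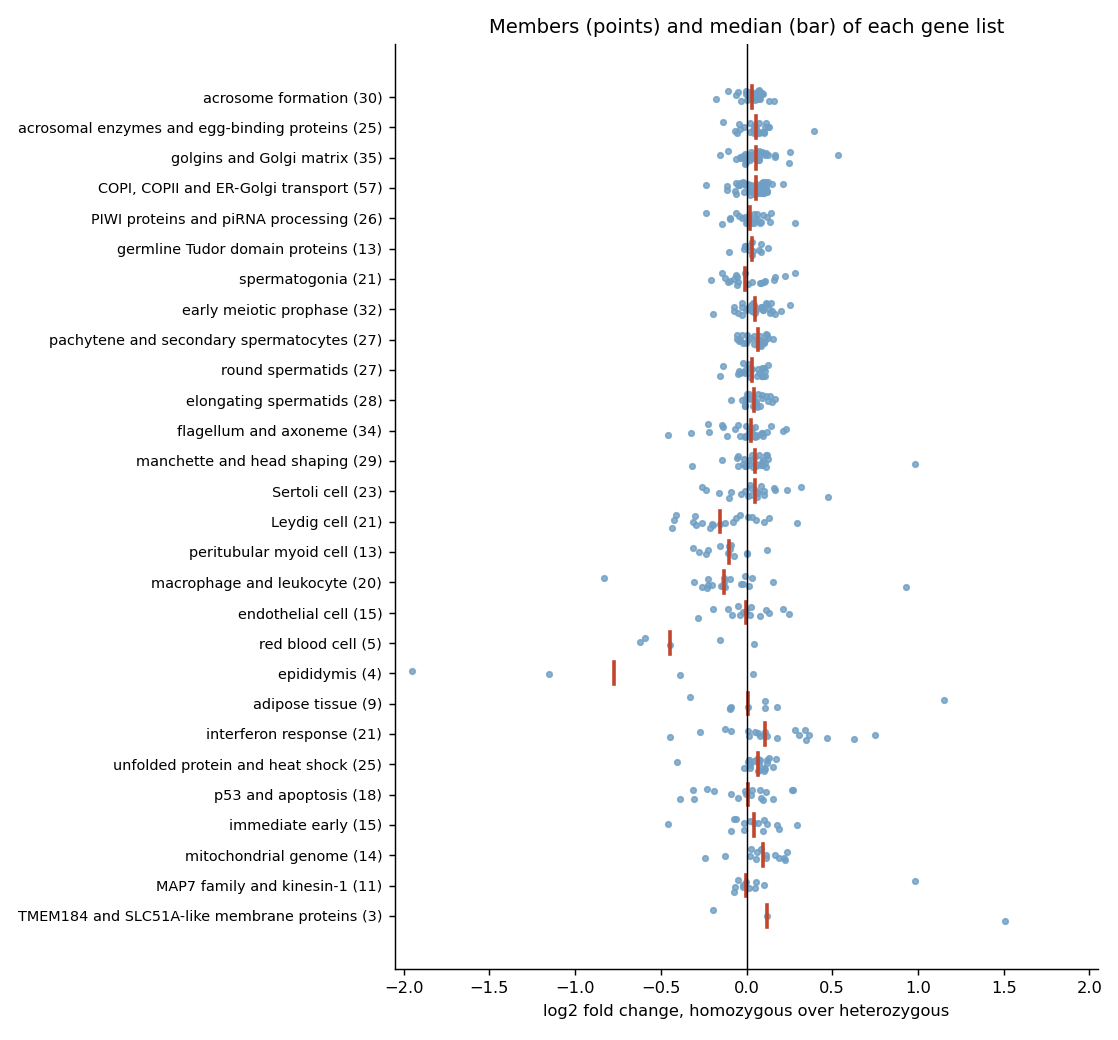
log2 fold change of homozygotes over heterozygotes (horizontal axis) for the members of 28 gene lists; each point is 1 gene, each red bar the list's median, and the number tested is in brackets. Germ cell, acrosome, Golgi and piRNA lists sit close to 0, and Map7d3, Tmem184c and Golga2 stand out of theirs. The epididymis list, with 4 tested genes, scatters widely.

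No somatic cell marker passed. Of 21 Leydig cell genes, which mark the cells that make testosterone, 6 had a positive log2 fold change, beside 10786 of all 20782 features. An unadjusted p under 0.05 was reached by 3 of them, all lower, beside 2.1% of all features on that side, and the median was -0.15. Hsd17b3, the last enzyme of testosterone synthesis, stood at 9.31, 10.7 and 11.3 CPM in heterozygotes and 7.90, 7.83 and 7.78 in homozygotes (-0.41, 95% interval -0.67 to -0.15), with wild type at 23.0 to 28.4. Ptgds (-0.43) and Vcam1 (-0.42) also had an unadjusted p under 0.05, with groups that overlapped. The summed level of the list ranged from 1070 to 1256 CPM in heterozygotes and from 983 to 1212 in homozygotes, so the groups overlapped. Sertoli markers had a median of 0.05 (23 genes, Cldn11 at 0.17 and Shbg at 0.48), myoid markers -0.10 (13 genes, Tagln at -0.22 and Myh11 at -0.16), macrophage and leukocyte markers -0.13 (20 genes) and endothelial markers -0.00 (15 genes), with 0 passing. Intervals lay within 1.5-fold for 11 of 21 Leydig, 19 of 23 Sertoli and 10 of 13 myoid genes. The same held for 9 of 20 macrophage and leukocyte genes and 9 of 15 endothelial genes. For the other genes of these lists a change of that size is not excluded. Cd74 (-0.83) and H2-Aa (0.93), both of the antigen presentation pathway, differed in sign. Enough fragments for a test were found for 21 of 22 Leydig and 23 of 24 Sertoli markers (Insl3 and Trf were left out) and for 28 of 30 elongating spermatid markers.

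Signs of carried-over tissue and of blood were weak. Of 4 tested epididymal markers, Crisp1 stood at 0, 0.134 and 10.6 CPM in heterozygotes and 2.44, 0.035 and 0.154 in homozygotes. Adam7 stood at 0.023, 0 and 1.13 CPM against 0.425, 0 and 0.039. Heterozygous library 3 and homozygous library 1 were thus highest in their genotype for both markers. Wild-type library 2 held more of each (30.8 and 3.58 CPM). Defb21 did not follow, at 0.778, 1.17 and 1.03 CPM in heterozygotes and 0.283, 1.12 and 0.847 in homozygotes. A further 6 markers of that tissue were too low to test. The part of epididymal RNA in other results was not tested. Red blood cell genes had a median of -0.45 over 5 genes (Hba-a1 at 10.8, 14.4 and 5.54 CPM against 7.33, 7.45 and 5.24). Interferon response genes had a median of 0.11 over 21 genes, with 0 passing and only 7 intervals within 1.5-fold. Usp18 (0.75, 95% interval 0.21 to 1.28) and Irf7 (0.63, 0.11 to 1.15) had the lowest p among them, below 3 CPM in every heterozygous and homozygous library. The unfolded protein and heat shock list (25 genes, median 0.07, Xbp1 at 0.16), the p53 list (18, 0.01) and the mitochondrial genome (14, 0.10, mt-Nd3 at 0.22) had 0 passing genes. In that order, 22, 10 and 11 of their intervals lay within 1.5-fold.

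Long genes lay lower in homozygotes as a class, although Gm26561 alone of them passed. Over all features, an unadjusted p under 0.05 was reached by 201 features higher in homozygotes (0.967%) and by 437 lower (2.1%). Of 577 features longer than 300 kb, 89 were lower (15.4%) and 0 higher, with a median log2 fold change of -0.20. From 100 to 300 kb, 93 of 1987 were lower and 4 higher (median -0.07). Under 10 kb, 87 of 7183 were lower and 91 higher (median 0.02). Among long noncoding or unclassified genes from 30 to 100 kb, 45 of 531 were lower and 3 higher (median -0.15). In 120 of the features over 300 kb (20.8%) every homozygous library lay below every heterozygous one, beside 4.45% of all features, and in 2 above, beside 3.86%. With the gene length trend removed, which takes out this shift by design, 226 of all features were higher and 323 lower.

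The genes over 300 kb named next were chosen after their values were seen, from the 12 with the lowest p. Fat3, an atypical cadherin gene of 591097 bases, stood at 40.7, 42.0 and 46.7 CPM in heterozygotes and 33.5, 28.5 and 29.1 in homozygotes (-0.50, SE 0.12). Agbl1, which encodes a tubulin deglutamylase and spans 894812 bases, stood at 36.2, 32.0 and 35.4 CPM against 23.3, 21.5 and 19.3 (-0.69, SE 0.20). Ebf1 (-0.44), the kinase gene Prkca (-0.41), the methionine sulfoxide reductase gene Msra (-0.33), Tshz2 (-0.35), Cntnap5a (-0.70) and Lrrc7 (-0.73) also lay lower without overlap. None of these 8 passed in edgeR with all 9 libraries. Agbl1, Cntnap5a and Fat3 passed in DESeq2 on the 6 libraries, and Agbl1 also in edgeR without wild-type library 1 (adjusted p = 0.0372). Oca2, a melanosomal transporter gene of less than 300 kb, stood at 14.4, 11.8 and 13.2 CPM against 9.07, 7.59 and 10.4 (-0.55, SE 0.14).

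Counts were taken over whole gene bodies, introns included, so unspliced RNA enters these values. Genes over 300 kb took 3.85, 3.59 and 4.18% of nuclear-genome fragments in heterozygotes and 3.23, 3.20 and 3.62% in homozygotes. Heterozygous library 2 and homozygous library 3 overlapped, and wild type (2.45 to 3.23%) reached from below the homozygotes into their range, so heterozygotes held the highest share. The median of features over 300 kb was negative in each fit with 1 library left out, from -0.28 to -0.12. The number lower depended on the libraries: it was 26 when heterozygous library 3 was left out, 45 for homozygous library 1, 23 for homozygous library 2, 149 for homozygous library 3 and 156 for wild-type library 1. With the gene length trend removed, 10 were higher and 16 lower. That step subtracts each library's trend with gene length, any difference between genotypes included. The loss of the excess is thus fixed by the step and is no separate result. The cause of the shift was not tested.

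**Figure D4:**
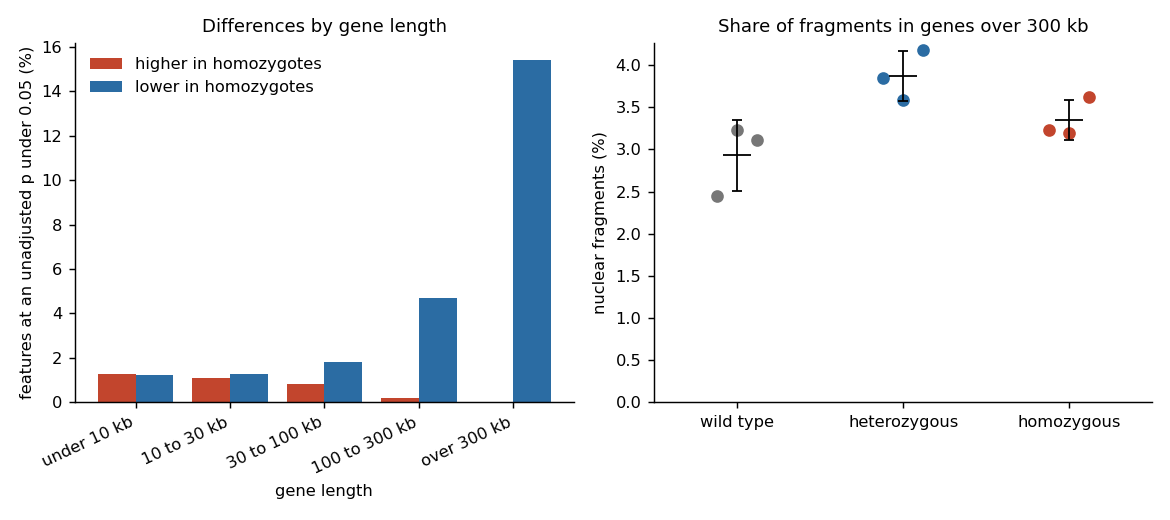
Left, percent of features at an unadjusted p under 0.05 that were higher or lower in homozygotes (vertical axis) by gene length; right, percent of nuclear-genome fragments in genes over 300 kb in each library (points), with mean ± SD over 3 libraries. The lower share reaches 15.4% in the longest class, and homozygous libraries lie at 3.20 to 3.62% against 3.59 to 4.18% in heterozygotes.

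A stretch at the end of chromosome 4 held the largest cluster of features higher in homozygotes. With the genome divided into windows of 5 Mb, the 3 windows with most higher features at an unadjusted p under 0.05 were the last 3 of chromosome 4, with 9, 4 and 4. Together, tested features from positions 145213463 to 156255338 numbered 186, of which 17 were higher (9.14%) and 5 lower (2.69%). On the rest of the chromosome 14 of 1107 were higher, and over all features 0.967% were higher and 2.1% lower. The stretch was picked by its count of higher features, so this excess is a description and not a test. In 12 of these 17 the wild-type mean lay above the homozygous one, so heterozygotes were the lowest genotype. Over all 201 higher features, these 17 included, this held for 52. C1qtnf12, a secreted C1q and TNF-related gene, is an example, at 4.69, 5.61 and 7.46 CPM in heterozygotes, 9.14, 9.44 and 9.62 in homozygotes and 10.5 to 11.8 in wild type (log2 fold change 0.67, SE 0.16).

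The heterozygous libraries were not alike there in some genes. Without heterozygous library 3, edgeR called 18 features in place of 6, and 9 of its 13 higher calls lie on chromosome 4 (8 of them in this stretch). These genes were chosen after their values were seen. Ttc34, a tetratricopeptide repeat gene, stood at 2.93, 3.04 and 11.3 CPM in heterozygotes, 13.7, 11.7 and 12.7 in homozygotes and 16.3 to 19.7 in wild type. The pseudogene Gm13241 stood at 0.046, 0.033 and 1.07 CPM in heterozygotes and 1.13, 0.909 and 0.847 in homozygotes. The long noncoding RNA Gm26763 stood at 2.49, 3.14 and 23.7 CPM against 17.6, 16.3 and 24.6, and the zinc finger gene Zfp981 at 3.84, 2.71 and 10.2 against 9.21, 9.62 and 9.09.

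In all 9 of these genes, Fam131c, Znf41-ps, Zfp984, Mxra8 and Fbxo44 included, heterozygous libraries 1 and 2 lay below the other 7 libraries, and heterozygous library 3 lay above both. In edgeR these 9 genes passed only without heterozygous library 3. The split among the heterozygous libraries is thus largely fixed by how the genes were chosen. The wild-type levels did not enter that contrast. Heterozygous library 3 was itself below every homozygous library for Ttc34, Mxra8 and Fbxo44. Zinc finger genes and pseudogenes of this region have near-identical copies, so fragments may be split among them, and with both strands summed Zfp981 had a log2 fold change of -0.22. Outside chromosome 4, the pseudogene Gm6969 on chromosome 12 showed the same split, at 4.87, 4.88 and 19.6 CPM in heterozygotes and 18.6, 20.9 and 19.8 in homozygotes. The cause of this split was not tested. Gm9, Tmem184c, Map7d3, Gm26561 and both precursors passed with and without heterozygous library 3.

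**Figure D5:**
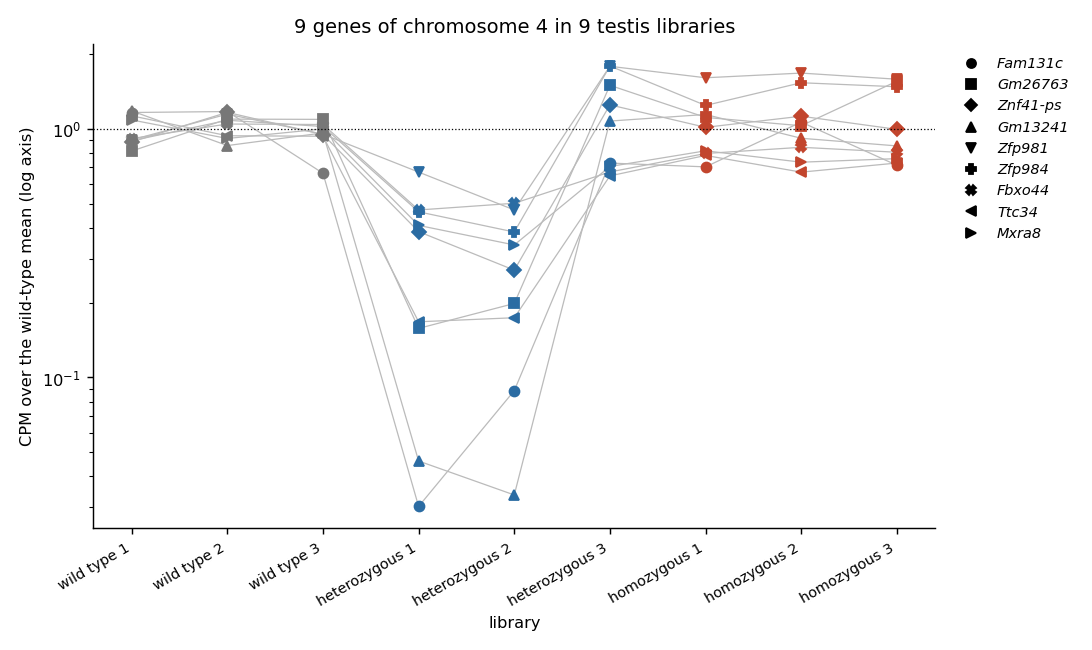
CPM of 9 chromosome 4 genes in 9 libraries, each divided by the gene's wild-type mean (log axis); each marker shape is 1 gene, grey lines join a gene's values, and the dotted line marks the wild-type mean. Heterozygous libraries 1 and 2 lie below the other 7 libraries in all 9 genes, and heterozygous library 3 does not. The genes were chosen as higher in homozygotes without heterozygous library 3, which largely fixes this split.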

How the data were processed

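Total RNA of each testis sample went into a stranded library after ribosomal RNA removal, per the labels' protocols. The authors deposited raw, unscaled fragment counts for each feature. Per the file headers, featureCounts 1.6.2 assigned read pairs to entire gene bodies with their introns, in a separate file for each strand, and fragments in overlapping features of 1 strand were not counted. The kit-strand counts over 50051 features (49585 genes and 466 piRNA precursors) were used, and the opposite strand was an alternative. The submitters' processing notes also name HISAT2 2.1.0 and cutadapt 1.18, and the mm10 and mm9 builds. Gene coordinates are those of the files. Small RNA counts cover sense exons of genes.

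All 9 RNA-seq libraries entered 1 edgeR 4.0.16 fit (R 4.3.3) with group means, after filterByExpr and TMM scaling, and homozygotes were contrasted with heterozygotes by the quasi-likelihood test. The threshold was 0.05 after Benjamini-Hochberg adjustment over 20782 features. An adjusted p with no tool beside it is edgeR's, and DESeq2 1.42.0 gave the others. The SE is the size of the log2 fold change over the square root of F. Scripts were tested on simulated data. Replicate numbers of RNA-seq libraries follow sample order and pair nothing.

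The comparison, the 28 gene lists and the rules were chosen with earlier results of these data known. Named genes passed in edgeR or in DESeq2, or were among the 10 per direction with the lowest p, no overlap and 1 CPM or more (at most 3 placeholder symbols), or the 3 members per list with the lowest p, or were fixed by name (Golga2, Gopc, Dpy19l2, Spaca1, Zpbp, Acr, Piwil1, Piwil2, Mov10l1, Mybl1, Tdrd1, Map7d1, Map7d2, Tmem184a and Tmem184b). Not every gene this rule names is described, and 1 result is not reported here. The lists gave 0 to 1 passing genes each. Adipose tissue and immediate early genes had medians of 0.01 and 0.04. Alternatives were DESeq2 on 9 or 6 libraries, limma-voom (limma 3.58.1), RLE scaling, unscaled library sizes, all features kept, only features averaging 1 CPM or more, the 6 libraries compared, both strands summed, a 2-fold limit and each of 9 libraries left out. Removal of gene length trends and the opposite strand alone were chosen after the data were seen.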

Additional observations from a re-analysis of the deposited data

How the results depend on the processing

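Both precursors and Gm9 passed in each of 21 alternative settings, and Tmem184c in 20, all but the 2-fold limit (adjusted p = 0.244). Map7d3 passed in 15 and Gm26561 in 14. The 3 features higher and 3 lower became 9 and 8 in DESeq2 on 9 libraries, 9 and 9 in DESeq2 on 6 libraries, 5 and 8 with no filter, 8 and 7 in DESeq2 with the gene length trend removed, and 1 and 2 with a 2-fold limit. With 1 library left out, 2 to 13 were higher and 2 to 5 lower, the highest without heterozygous library 3. The limma-voom fit kept all 6 calls, and the opposite strand alone gave 0 calls in edgeR of 12303 features, with 472 at an unadjusted p under 0.05.

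Some signs turned. Without scaling beyond library size these were Dpy19l2 (-0.0045), Mybl1 (-0.0056), Piwil2 (-0.0099), Gopc (-0.025), Mov10l1 (-0.035), Spaca1 (-0.029) and Map7d1 (-0.0402). With both strands summed they were Gm26561 (0.072) and Zfp981 (-0.215), with limma-voom Crisp1 (0.498), and with the gene length trend removed Zpbp (0.0766 in both tools) and Map7d2 (0.015). With single libraries left out the ranges were -0.0147 to 0.146 for Dpy19l2, -0.0992 to 0.0403 for Piwil1, -0.0357 to 0.138 for Mybl1, -0.0271 to 0.0578 for Mov10l1, -0.0818 to 0.0754 for Spaca1, -5.17 to 3.92 for Crisp1, -0.0746 to 0.0503 for Zpbp, -0.0832 to 0.0727 for Map7d2, -0.135 to 0.158 for Map7d1 and -0.0193 to 0.059 for Gopc. For these the cause was not tested. With 1 library left out a group keeps 2 libraries, and its spread is estimated with those of the other groups. No paired analysis was possible because the labels number the RNA-seq libraries in 1 series over all genotypes. The 95% interval lay within 1.5-fold for 0.446% of features under 1 CPM, 51.8% at 1 to 10 CPM, 94.0% at 10 to 100 CPM and 96.8% at 100 CPM or more, so precision was lowest at low levels.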
